A study of Mus musculus with 18 samples.

Results

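The choroid plexus epithelium genes described here are *Ttr*, *Folr1*, *Kl*, *Clic6*, *Kcne2*, *Otx2*, *Sostdc1*, *Aqp1*, *Tmem72* and *Kcnj13*. They are 10 of the 15329 genes listed in a table of hippocampal RNA from 18 mice, and all 10 were listed and had reads in every library. They are textbook genes of this epithelium, and they were selected on measured values of the same 18 libraries, namely their low levels in untrained *Ccny* KO mice and their spread between libraries. Levels that include the untrained mice, and the size of the members' spread, are therefore a description, and tests are given only between groups of trained mice. These tests are not free of the selection. Their standard errors use the spread within all groups, untrained mice included, and a wide spread makes a call less likely. The mice were C57BL/6J, 8 to 10 weeks old, and 3 mice made up each group with 1 library per mouse. WT_Basal and KO_Basal mice were untrained. WT_OL and KO_OL mice had been trained to find a platform in the Morris water maze, the original learning, and WT_RL and KO_RL mice had in addition learned a reversed position. Cyclin Y, the product of *Ccny*, is a membrane-bound cyclin of postsynaptic sites, and the study asked how its loss alters the hippocampal transcriptome at rest and after learning.

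The choroid plexus is a secretory tissue that hangs into the ventricles of the brain, where that of the lateral ventricle lies against the hippocampus. Its epithelium makes the cerebrospinal fluid by moving ions and water from blood to ventricle. It also releases proteins into the fluid, of which transthyretin is the best known. The epithelium is a different tissue from the hippocampus proper, and the labels do not say how much of it each dissection held. In bulk RNA, fewer epithelial cells and less RNA per cell cannot be told apart.

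The libraries held 29248557 to 37915576 reads on listed genes, and 1 read corresponded to 0.0274 to 0.0333 CPM (counts per 1000000 after the authors' normalization). The lowest library of a member held 446 reads for *Ttr*, 455 for *Kl* and 81 for *Sostdc1*, but 27 to 31 for *Folr1*, *Kcnj13* and *Clic6* and 1 to 12 for *Aqp1*, *Otx2*, *Kcne2* and *Tmem72*, so that levels of the last 4 genes there have a large counting error. *Ccny* was between 107 and 158 CPM in the WT libraries and between 74.0 and 95.8 CPM in the KO libraries, so its levels followed the genotype labels without overlap. Reads of *Ccny* remained in the KO libraries, so this check does not show loss of the transcript. The sum over 12 markers of hippocampal neurons lay between 5314 and 7107 CPM, and *Camk2a* alone was 3651 to 5395 CPM. *Prox1* was 34.4 to 90.5 CPM and *Wfs1* 91.4 to 175 CPM, and the sum does not show how alike the dissections were. WT_RL 1, KO_Basal 1 and KO_Basal 3 stood apart as the 3 lowest libraries for all 10 members, and the main results that rest on them are also given without them.

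To show where transcription of members starts, the 250 bases before the start are printed for *Aqp1* and *Kcnj13*, whose levels followed the other members most closely, and for *Kl*, which followed them least. Sequences and starts are those of RefSeq on GRCm38.p6, written 5′ to 3′ on the strand of the gene, and 6 of the 10 members had an entry.
Aqp1, chr6:55336049-55336298, plus strand: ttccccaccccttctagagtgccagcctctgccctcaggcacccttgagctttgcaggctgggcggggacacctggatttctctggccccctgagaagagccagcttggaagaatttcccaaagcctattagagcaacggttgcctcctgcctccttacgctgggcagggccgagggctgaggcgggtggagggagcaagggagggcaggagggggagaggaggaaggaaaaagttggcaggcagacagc
Kcnj13, chr1:87394730-87394979, minus strand: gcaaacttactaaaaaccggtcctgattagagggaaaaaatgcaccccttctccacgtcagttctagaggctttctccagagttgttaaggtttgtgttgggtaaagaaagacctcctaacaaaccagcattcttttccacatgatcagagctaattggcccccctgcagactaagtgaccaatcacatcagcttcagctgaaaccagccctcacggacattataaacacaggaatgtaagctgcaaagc
Kl, chr5:150952357-150952606, plus strand: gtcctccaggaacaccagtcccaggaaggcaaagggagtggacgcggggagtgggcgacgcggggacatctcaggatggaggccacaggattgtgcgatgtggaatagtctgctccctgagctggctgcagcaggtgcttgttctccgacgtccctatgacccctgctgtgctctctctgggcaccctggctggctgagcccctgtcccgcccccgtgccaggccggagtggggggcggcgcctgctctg

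The *Aqp1* and *Kl* stretches overlap no annotated exon, and that of *Kcnj13* lies in an intron of *Gigyf2*, which is transcribed from the other strand. The letters TAATCC, the core recognised by homeodomain factors such as OTX2, were searched on both strands. They were present in 6.25% of 32851 such stretches over all genes, and in 1 of the 10 stretches that the 6 members had, which belongs to *Otx2* itself. That match is printed with its flanks, and the capitals mark the motif as read on the other strand. It lies in an untranslated exon of other *Otx2* transcripts, and a match of letters is no evidence of binding.
Otx2, chr14:48665303-48665332, minus strand: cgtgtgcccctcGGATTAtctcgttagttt

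*Ttr* encodes transthyretin, the carrier of thyroxine and retinol-binding protein in cerebrospinal fluid. It had the widest range of the members other than *Tmem72*, whose lowest library held a single read. Its level was 2185, 759 and 4004 CPM in the mice of WT_Basal, and 23.1, 597 and 50.9 CPM in those of KO_Basal. After original learning it was 3037, 2964 and 1687 CPM in WT_OL, and 2173, 2967 and 4232 CPM in KO_OL. After reversal learning it was 12.2, 759 and 7685 CPM in WT_RL, and 4541, 1187 and 2430 CPM in KO_RL. The lowest and the highest library of the series were thus both WT_RL, 628-fold apart, and no group of trained mice was separated from another. The means ± SD were 2316 ± 1626 CPM in WT_Basal, 224 ± 324 CPM in KO_Basal, 2563 ± 759 CPM in WT_OL, 3124 ± 1038 CPM in KO_OL, 2819 ± 4231 CPM in WT_RL and 2719 ± 1696 CPM in KO_RL (n = 3 each). Ordered by the mean, KO_Basal was lowest, followed by WT_Basal, WT_OL, KO_RL, WT_RL and KO_OL. The 5 groups above KO_Basal were within each other's spread. Ordered by the mean of log2 values, WT_RL moved down to second lowest, at 8.73 against 6.50 in KO_Basal and 10.88 in WT_Basal.

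*Kl* encodes Klotho, a co-receptor of fibroblast growth factors that is also shed into the fluid. Its level was 93.0, 48.5 and 139 CPM in WT_Basal, 14.5, 37.3 and 22.5 CPM in KO_Basal, 103, 65.2 and 91.8 CPM in WT_OL, 102, 131 and 173 CPM in KO_OL, 26.8, 41.7 and 305 CPM in WT_RL, and 199, 67.8 and 105 CPM in KO_RL. Its highest library was the same as for *Ttr*, but its range was 21.1-fold and its lowest library was KO_Basal 1. *Folr1* encodes folate receptor alpha, which takes folate up from the blood side. It ranged from 0.879 CPM in KO_Basal 3 to 63.9 CPM in WT_RL 3, a 72.7-fold range, with a median of 18.5 CPM.

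Among the genes of water and ion transport, *Aqp1* encodes the water channel of the membrane facing the ventricle. Its level was 15.2, 6.33 and 28.5 CPM in WT_Basal, 0.540, 4.56 and 0.553 CPM in KO_Basal, 19.5, 17.5 and 14.2 CPM in WT_OL, 18.5, 24.6 and 32.3 CPM in KO_OL, 0.329, 5.43 and 54.2 CPM in WT_RL, and 37.2, 9.07 and 18.8 CPM in KO_RL. The same 3 libraries were under 1 CPM, and the other 15 were all above 4 CPM. *Kcnj13*, the inwardly rectifying potassium channel Kir7.1, ranged from 0.796 to 70.2 CPM, an 88.3-fold range. *Kcne2*, an accessory subunit of potassium channels, ranged from 0.165 CPM (6 reads) to 47.6 CPM, and *Clic6*, of the chloride intracellular channel family, from 0.851 to 176 CPM. For these 4 genes the lowest library was WT_RL 1 and the highest was WT_RL 3.

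*Otx2* encodes a homeodomain transcription factor that the epithelium needs to form and persist. It ranged from 0.274 CPM (10 reads) to 37.4 CPM, also from WT_RL 1 to WT_RL 3. Part of *Otx2* is shared with *Gm49154* on the same strand and with *Otx2os1* on the other, and *Kcnj13* overlaps *Gigyf2* on the other strand. The use of strand in counting is not known, so the reads of both genes are less certain than those of other members. *Sostdc1* encodes a secreted inhibitor of BMP and Wnt signalling and had the narrowest range, 17.6-fold, from 2.22 to 39.2 CPM. *Tmem72*, a transmembrane protein of little known function, went from a single read (0.0274 CPM) in WT_RL 1 to 33.5 CPM (1107 reads) in WT_RL 3, and no fold is given against a single read.

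**Figure D1:**
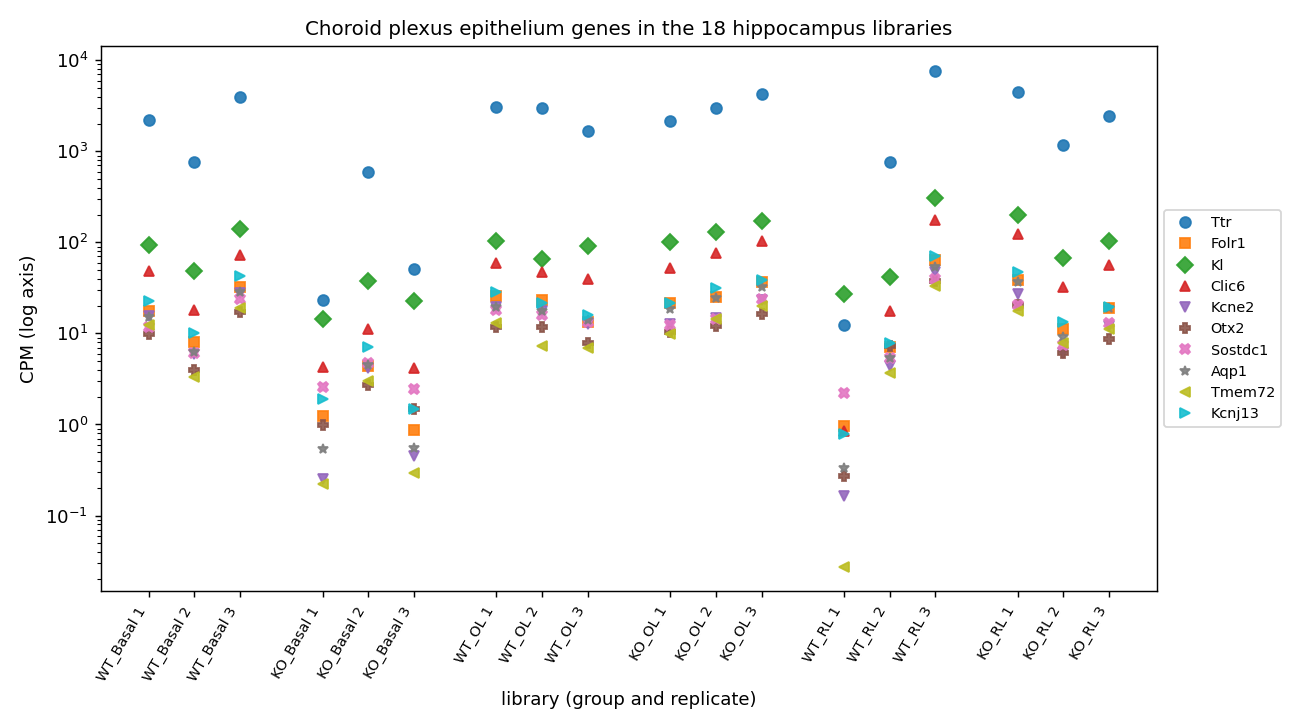
Levels of the 10 genes in each of the 18 libraries, in CPM on a log axis, with libraries set in their groups along the x axis and 1 marker shape per gene. The 10 genes go up and down together from library to library, are lowest in WT_RL 1, KO_Basal 1 and KO_Basal 3, and are highest in WT_RL 3.

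The members varied together from library to library. WT_RL 3 was the highest library for all 10, and WT_RL 1 was the lowest for 8. The summed level of the 10 genes went from 44.6 CPM in WT_RL 1 to 8513 CPM in WT_RL 3. This sum was 0.00429% of reads in the first (95% Wilson interval 0.00409 to 0.00450) and 0.842% in the last (0.839 to 0.845), where intervals cover counting error only. Over the 45 pairs of members the lowest Spearman's rho across the 18 libraries was 0.905 and the lowest Pearson's r of log2 values was 0.901. These points share their libraries and normalization. In the 15 libraries left without the 3 low ones, the lowest values were 0.846 and 0.920. The r of a member with the mean of the other 9, over the 12 trained libraries with group means removed, was 0.932 for *Kl* and 0.962 for *Ttr*, and it reached 0.997 for *Aqp1* and *Kcnj13*.

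Mice of the same group differed widely in these genes. The pooled within-group SD of log2(CPM + 1) was 2.25 for *Ttr*, the largest of all 15329 genes. Next among the members were *Clic6* with 1.51, *Kcne2* with 1.35 and *Aqp1* with 1.33. The median SD of the 10 members was 1.28, against 0.147 over all genes. Since the genes were selected with their spread in view, these ranks describe the selection and support nothing further. Of the 20 genes with the largest SD 8 were members, and all 10 were among the first 100. Without WT_RL 1 the SD of *Ttr* was 1.45 and the members' median 0.968, with 5 members among the first 20. Without all 3 low libraries these values were 1.12, 0.980 and 4, and *Ttr* then ranged 12.9-fold. Groups accounted for 41.3% to 54.9% of the variance of a member, with a median of 49.7% against 47.2% over all genes.

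In the 15 libraries with at least 500 CPM of *Ttr*, the proportions between members were far steadier than the levels. There *Aqp1* had 5.91 to 8.53 reads per 1000 *Ttr* reads, a 1.44-fold range, while *Ttr* itself ranged from 597 to 7685 CPM. *Folr1* had 7.31 to 10.7 and *Kcnj13* 7.34 to 13.2 reads per 1000 *Ttr* reads in the same libraries. *Clic6* had 15.9 to 27.6 reads per 1000 *Ttr* reads. The proportions of *Kl*, at 22.0 to 63.8, varied most, 2.90-fold. *Otx2* had 3.60 to 9.50, where the upper value was WT_RL 2. WT_OL 2 had the lowest proportion of *Kl*, *Clic6*, *Aqp1*, *Tmem72* and *Kcnj13*, so this library differed from the others in *Ttr* relative to these genes. The limit of 500 CPM was set after the values were seen.

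The proportion of *Kcne2* was singled out after its values were seen. It was 7.02 to 7.85 reads per 1000 *Ttr* reads in WT_Basal, 6.995 in KO_Basal 2, 5.98 to 7.45 in WT_OL and 4.95 to 5.86 in KO_OL. It was 5.77 to 6.20 in WT_RL 2 and 3, and 5.01 to 5.91 in KO_RL. The values of KO_OL lay below those of WT_OL without overlap, with 3 mice in each, while those of KO_RL overlapped those of WT_RL. Of the 9 proportions to *Ttr*, 3 were separated between KO_OL and WT_OL, as *Clic6* (23.8 to 25.7 against 15.9 to 23.4) and *Tmem72* (4.53 to 4.84 against 2.45 to 4.27) were higher in KO_OL. In the other comparisons of trained mice, leaving out WT_RL 1, 1 of 9 was separated between KO_RL and WT_RL, 2 between WT_RL and WT_OL and 0 between KO_RL and KO_OL. With 3 mice on either side the smallest two-sided p of an exact permutation test is 0.1, and it is larger where WT_RL had 2 libraries. The 9 proportions share the *Ttr* reads, and no share over other genes was computed. These differences were not tested.

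In the 3 low libraries the proportions were different. *Kl* had 626, 442 and 2188 reads per 1000 *Ttr* reads in KO_Basal 1, KO_Basal 3 and WT_RL 1, and *Sostdc1* had 113, 48.6 and 182. For *Aqp1* the values were 23.4, 10.9 and 26.9, a smaller departure from the other 15 libraries. *Ttr* made up 87.3% to 92.9% of the reads of the 10 genes in those 15 libraries. In WT_RL 1 it made up 27.4% (95% Wilson interval 25.3 to 29.6), and *Kl* 59.99% (57.6 to 62.3). These are shares of reads and do not compare molecules of genes of different length. *Kl* and *Sostdc1* were lower by smaller folds than *Ttr* in these 3 libraries.

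**Figure D2:**
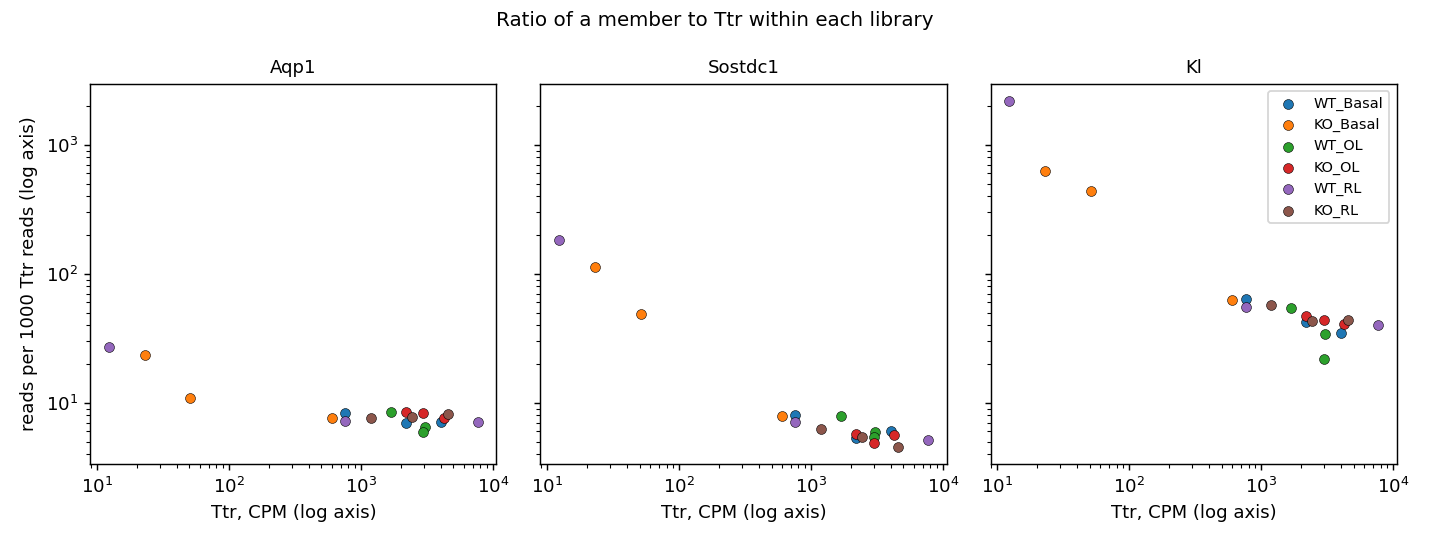
Reads of *Aqp1*, *Sostdc1* and *Kl* per 1000 *Ttr* reads (y axis, log) against the *Ttr* level in CPM (x axis, log), 1 point per library, coloured by group. The 15 libraries with over 500 CPM of *Ttr* lie in a narrow band in each panel, and the 3 libraries below it rise above the band, to 26.9 for *Aqp1*, 182 for *Sostdc1* and 2188 for *Kl*.

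Between untrained mice, all 10 members were lower in every KO_Basal mouse than in every WT_Basal mouse. This is the pattern in view of which the genes were chosen, so it is a description without a test. Of all genes 7.67% were lower without overlap. The difference of mean log2(CPM + 1) was largest for *Ttr*, at −4.37, and smallest for *Sostdc1*, at −1.66, with a median of −2.55 over the members and of 0.0064 over all genes. The difference was −2.83 for *Kcne2*, −2.68 for *Aqp1*, −2.66 for *Folr1*, −2.57 for *Clic6*, −2.54 for *Kcnj13*, −2.502 for *Tmem72*, −1.91 for *Otx2* and −1.85 for *Kl*. Adding 1 to CPM shrinks the differences of members that were under 1 CPM in both KO_Basal 1 and KO_Basal 3. These were *Kcne2* (0.254 and 0.456 CPM), *Aqp1* (0.540 and 0.553 CPM) and *Tmem72* (0.223 and 0.293 CPM). The order of the members therefore depends on this scale. KO_Basal 1 and KO_Basal 3 lay below KO_Basal 2 for all 10 members. KO_Basal 2 alone was below the lowest WT_Basal mouse for all 10 members, but by less, at 54.0% of that mouse's level for *Folr1*, 78.6% for *Ttr* and 90.3% for *Tmem72*. Of all genes 27.2% were below every WT_Basal mouse in that library. The median difference of KO_Basal 2 from the mean of WT_Basal was −1.46.

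The levels after training, set against untrained mice of the same genotype, use the same untrained libraries and are likewise a description. In WT_OL against WT_Basal none of the 10 members was separated, with a median difference of 0.22 (13.1% of all genes were higher without overlap). In WT_RL against WT_Basal none was separated either, with a median of −0.95 (16.7% of all genes were lower without overlap). In the KO mice all 10 members were above every KO_Basal mouse in KO_OL, with a median difference of 3.03, and in KO_RL, with a median of 2.73. Of all genes, 24.2% and 22.7% were higher without overlap in these comparisons. *Ttr* differed by 5.05 in KO_OL and 4.70 in KO_RL, and *Sostdc1*, the least on the log2(CPM + 1) scale, by 2.06 and 1.72. Both comparisons share the KO_Basal libraries. Against KO_Basal 2 alone, without the low KO_Basal 1 and KO_Basal 3, all 10 members were still higher in every mouse, with medians of 1.91 in KO_OL (36.0% of all genes were higher in every mouse) and 1.63 in KO_RL (35.0%).

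Between groups of trained mice, no member passed an adjusted p of 0.05 in the main fit over all 18 libraries. Its SEs pool the spread within all groups, untrained mice included. For *Ttr* the SD of log2 values was 0.480 in WT_OL and 0.481 in KO_OL, against 4.65 in WT_RL and 2.42 in KO_Basal. In KO_OL against WT_OL the log2 fold changes of the members lay between 0.0014 for *Kcne2* and 0.64 for *Tmem72*, with a median of 0.44. *Kl* had the smallest adjusted p, with a log2 fold change of 0.63 (SE 0.657, adjusted p = 0.614, limma), and the lowest KO_OL mouse lay just under the highest WT_OL mouse. *Ttr* differed by 0.28 (SE 1.57, adjusted p = 0.936, limma). By limma 0 of 10 members passed an adjusted p of 0.05, 0 had an unadjusted p under 0.05 (18.03% of all genes had), and 0.0652% of all genes passed. In a fit on these 6 libraries alone, 4 members (*Aqp1*, *Clic6*, *Kl* and *Tmem72*) had an unadjusted p under 0.05, as had 9.73% of all genes, and none of the 10 passed after adjustment. There the SE was 0.216 for *Kl* (adjusted p = 0.502, limma) and 0.302 for *Ttr* (adjusted p = 0.673, limma).

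In KO_RL against WT_RL all members had a positive log2 fold change, between 0.55 for *Sostdc1* and 2.47 for *Ttr* (SE 1.57). *Clic6* had the smallest p, with a log2 fold change of 1.77 and an SE of 1.05, and the adjusted p was 0.986 for every member (limma). These values rested on single libraries of WT_RL. Without WT_RL 1 the members' log2 fold changes lay between −0.63 and 0.11, and that of *Ttr* was −0.035. Without WT_RL 3 they lay between 1.60 and 4.56, and all 10 members had an unadjusted p under 0.05 (8.53% of all genes had), with a lowest adjusted p of 0.301 (limma). No gene of the whole table passed in this comparison (0% of all genes), and with all libraries 0 members had an unadjusted p under 0.05 by limma (4.93% of all genes had), against 1 (*Tmem72*) by limma-voom on the recovered reads.

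In WT_RL against WT_OL all members had a negative log2 fold change, with *Ttr* at −2.54 (SE 1.57, adjusted p = 0.422, limma) and a median of −1.08. By limma 0 members passed and 0 had an unadjusted p under 0.05 (16.4% of all genes had), while 0.261% of all genes passed. The value for *Ttr* was −0.036 without WT_RL 1 and −4.63 without WT_RL 3, so the 2 libraries pulled it in opposite directions. Without WT_RL 3 all 10 members had an unadjusted p under 0.05, as had 15.6% of all genes, with a lowest adjusted p of 0.126 (limma). In KO_RL against KO_OL the log2 fold changes were small, between −0.39 and −0.23, with *Sostdc1* at −0.34 (SE 0.659) and *Ttr* at −0.35 (SE 1.57). The adjusted p was 0.9996 for all members (limma), 0 passed, 0 had an unadjusted p under 0.05 (4.81% of all genes had), and 0.0196% of all genes passed. Without KO_RL 2 the values of *Sostdc1* and *Ttr* were 0.015 and 0.14.

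The genotypes were also compared in their change from original to reversal learning. *Ttr* had the smallest adjusted p, with a difference of 2.19 on the log2 scale (SE 2.23, adjusted p = 0.802, limma), and it became −0.32 without WT_RL 1 and 4.27 without WT_RL 3. No member and no other gene passed (0% of all genes), and 0 members had an unadjusted p under 0.05 (7.98% of all genes had). Without WT_RL 3 the members' differences lay between 1.09 and 4.27, and 7 members had an unadjusted p under 0.05 (10.01% of all genes had), with a lowest adjusted p of 0.451 (limma). By limma-voom 0 members passed in any of the 5 comparisons. With SEs of 0.657 to 1.57 between 2 groups, these misses do not show that the groups were alike.

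**Figure D3:**
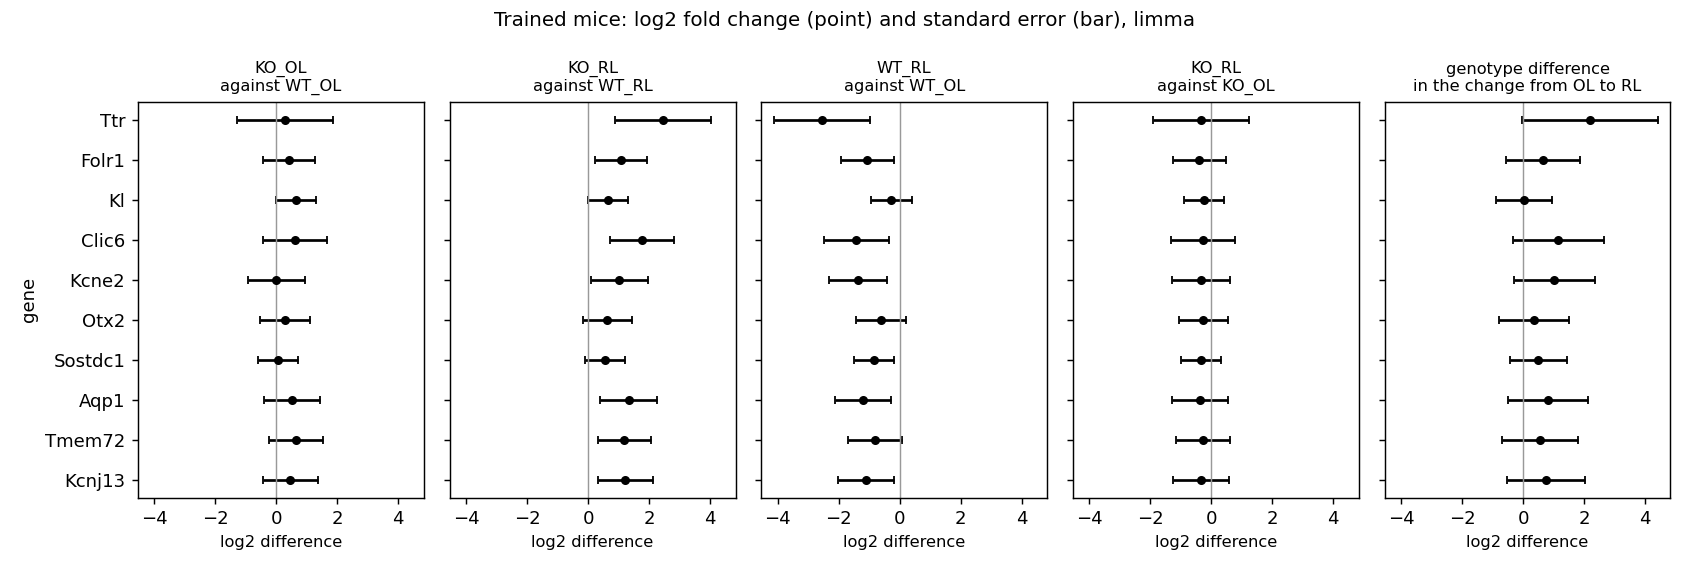
Log2 fold changes of the 10 genes (points) with standard errors (bars) in the 4 comparisons between groups of trained mice and in the difference between genotypes in the change from OL to RL, fitted with limma. The bars of KO_RL against KO_OL all cross 0, *Ttr* has the widest bars, and its largest values, 2.47, −2.54 and 2.19, are in the 3 panels that hold WT_RL.

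Genes that followed the members were sought in the 12 trained libraries, as the correlation r with the mean of the 10 members after group means were removed. There were 294 non-members with an r of at least 0.9, and the limit fell between *Thbs2* (0.9003) and *5930403L14Rik* (0.8994). Among them were 42 of 53 other genes known from the choroid plexus epithelium. The 10 with the highest r on no marker list were *Prr32* (0.989), *Cgnl1* (0.982), *Icam1*, *Drc7*, *Pla2g5*, *Tgfbr2*, *Hey2*, *Mdfic*, *Slc37a2* and *Tgtp1* (0.974). *Prr32* was near its floor in WT_RL 1, at 0.0823 CPM, and 13.6 CPM in WT_RL 3, whereas *Cgnl1*, which encodes a protein of cell junctions, was 14.5 and 88.5 CPM. The number of genes depended on single libraries. It was 382 without WT_RL 1, of which 187 were among the 294, 125 without WT_RL 3, of which 68 were, and 443 without WT_RL 2.

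The untrained mice gave no values to this r, but the members it is taken against were selected on their low levels in KO_Basal, so what follows is a description and not independent of that selection. Among the 294 genes, 116 (39.5%) were lower in KO_Basal than in WT_Basal without overlap, against 6.98% of the 15025 other genes, and the median difference of mean log2 values was −0.32 against 0.0084. Lower by more than 1.5-fold, with or without overlap, were 88 of 294 (29.9%), against 0.466% of the other genes. Of the 126 non-members lower in KO_Basal by at least 1.5-fold without overlap, 69 (54.8%) were among the 294, which is 23.5% of these. For the genes found without WT_RL 1 the share lower without overlap was 49.5%, and without WT_RL 3 it was 31.2%.

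**Figure D4:**
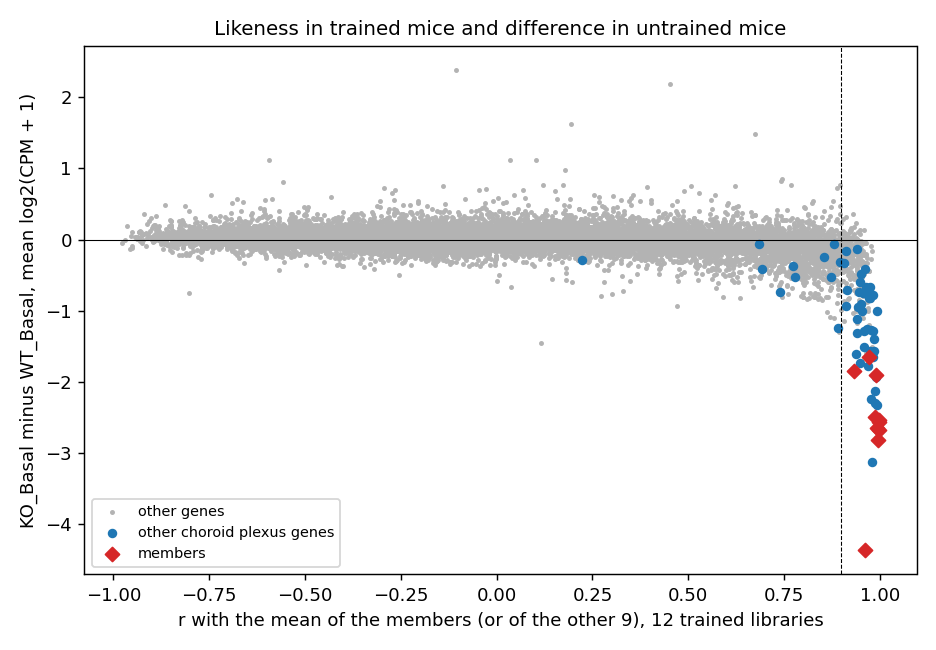
For each gene, the correlation r with the members over the 12 trained libraries (x axis; for a member, with the mean of the other 9) against the difference of mean log2(CPM + 1) between KO_Basal and WT_Basal (y axis). Members are red diamonds, other choroid plexus genes blue and all other genes grey. Of the non-members lower by more than 1.5-fold, 88 had an r of at least 0.9 (dashed line) and 70 had a lower r. The lowest value is −4.37, for *Ttr*.

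Other genes of the choroid plexus varied with the members to different degrees. *Enpp2*, which encodes autotaxin, ranged from 169 CPM in WT_RL 1 to 4131 CPM in WT_RL 3, with an r of 0.988. *Igf2*, a growth factor made by choroid plexus and meninges, ranged from 42.1 to 323 CPM (r = 0.992), and *Trpm3*, a cation channel, from 65.4 to 256 CPM (r = 0.956). *Slc12a2*, the sodium, potassium and chloride cotransporter NKCC1, ranged from 68.7 to 214 CPM (r = 0.873). *Atp2b3*, a calcium pump also abundant in neurons, ranged only from 146 to 416 CPM and had an r of 0.224. Of the 53 genes 37 (69.8%) were lower in KO_Basal than in WT_Basal without overlap, as were 7.67% of all genes. The median difference was −0.91, against 0.0064 over all genes. This is a description in the untrained libraries on which the members were selected. None of the 53 passed in any of the 5 tests between trained mice (limma), and 4, 0, 2, 0 and 1 had an unadjusted p under 0.05 in the order given above. These are lower shares than the 18.03%, 4.93%, 16.4%, 4.81% and 7.98% of all genes.

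Marker lists of other cell types were summed in the same libraries. The sum over 13 of 14 ependymal genes, which mark the ciliated lining of the ventricle, moved with the members (Spearman's rho 0.775 over 18 libraries). It was 91.8 to 93.2 CPM in WT_Basal, 47.1 to 79.4 in KO_Basal, 73.0 to 99.6 in WT_OL, 70.1 to 133 in KO_OL, 52.8 to 142 in WT_RL and 49.3 to 138 in KO_RL. None of these genes was at 0 in any library. *Foxj1*, the regulator of motile cilia, was the highest of them, from 10.1 to 38.1 CPM. The part of ventricular lining in the members' values was not tested.

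By rho, other lists followed the members less. The rho was −0.187 for 12 fibroblast genes of meninges and stroma (136 to 266 CPM, led by *Dcn*), 0.222 for 10 smooth muscle genes (90.1 to 214 CPM, *Acta2*), −0.0114 for 11 endothelial genes (276 to 422 CPM, *Itm2a*) and −0.259 for 12 genes of macrophages and microglia (400 to 574 CPM). It was 0.129 for 8 astrocyte genes (5176 to 8045 CPM, *Slc1a2*), 0.391 for 8 oligodendrocyte genes (4865 to 10734 CPM, *Mbp*), −0.212 for the 12 genes of hippocampal neurons (*Camk2a*) and 0.201 for 10 thalamic and habenular genes (179 to 363 CPM, *Calb2*). Within groups the order was different. With group means removed, Pearson's r of the log2 sums with the mean log2 level of the members over the 18 libraries was 0.820 for oligodendrocytes, 0.686 for ependymal cells, 0.614 for thalamic and habenular genes, 0.529 for smooth muscle and 0.483 for endothelial cells. In the 15 libraries without the 3 low ones it was 0.713, 0.808, 0.581, 0.304 and 0.028 for these 5 lists, in the same order. Over the 18 libraries r was −0.454 for hippocampal neurons, −0.387 for hypothalamic genes and −0.331 for astrocytes. For the rest it lay between −0.154 and 0.380. Without the 3 low libraries, r was −0.683 for hippocampal neurons, −0.136 for hypothalamic genes and −0.583 for astrocytes. The oligodendrocyte sum, lowest in WT_RL 1, was 7169 to 9384 CPM in WT_Basal, 5936 to 7570 in KO_Basal, 7382 to 10734 in WT_OL, 4938 to 6514 in KO_OL, 4865 to 9003 in WT_RL and 5114 to 7550 in KO_RL, and none of its genes was at 0. The part of oligodendrocytes in the members' values was not tested. KO_Basal 1 held 108 CPM of 8 hypothalamic genes, with *Pmch* at 52.6 CPM, where the other 17 libraries held 1.74 to 12.1 CPM. The pituitary list was led by *Chgb*, which neurons also make (364 to 890 CPM in all, rho 0.0691), and of the red blood cell list only *Alas2* was listed (1.99 to 32.8 CPM, rho 0.478). *Gh*, of the pituitary list, was 32.3 CPM in WT_Basal 2, 7.32 CPM in WT_Basal 3 and 0 to 2.26 CPM in the other libraries. The part of these tissues in the members' values, such as the low ones of KO_Basal 1, was not tested.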

How the data were processed

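The authors prepared poly-A libraries from hippocampal RNA, sequenced 100-base pairs, aligned them to mm10 with STAR 2.5.1, counted reads on genes, applied TMM factors of edgeR 3.12.1 and deposited log2 values. The labels name a stranded TruSeq kit. Whether strand was used in counting is not given in the sources used here. The deposited log2 values are log2(CPM + 1), since 100% of them give whole reads within 0.05 of a read. The methods describe CPM floored at 1 instead, and that scale was kept as an alternative.

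Libraries were grouped by their labels. The 10 members, the marker lists, the likeness limit and the tests were chosen with earlier results of these data known. Named genes are all members, the 5 other choroid plexus genes with the highest mean CPM, the 10 unlisted genes with the highest r and a mean of at least 1 CPM, and the highest gene of each other list, except that of macrophages and microglia, which is not reported here. *Ttr* and the member with the smallest adjusted p are given for each test. The log2 values of all 15329 genes in 18 libraries were fitted with limma 3.58.1 in R 4.3.3 (1 mean per group, eBayes with trend), two-sided, with Benjamini-Hochberg adjustment over all genes and a threshold of 0.05. The fit was tested on simulated data. Replicates are separate mice, and the chi-square per gene between replicates was 8.83 to 105 times counting noise.

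Same-numbered libraries correlated over 0.1 in 1 of 12 pairs in the tested comparisons, and in 12 of 45 over all groups, so numbers were not taken to pair mice. Alternatives were log2(CPM + 0.1), CPM under 1 raised to 1, no TMM factor, a mean log2 of at least 1, only the libraries compared, limma-voom on recovered reads, weights per library (statmod 1.5.0), a replicate block and leaving out each library. Positions come from GENCODE M21. Python 3.11.15, pandas 2.3.3, numpy 2.4.6, scipy 1.17.1 and matplotlib 3.10.9 were used.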

Additional observations from a re-analysis of the deposited data

How the results depend on the processing

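The number of members called stayed 0 in all 5 tests between trained mice under every alternative but weights per library, which called 7 members in WT_RL against WT_OL, with *Ttr* at −4.14 (adjusted p = 0.0362, limma), where 16.1% of all genes were called. Those weights did not converge and gave WT_OL 1 a weight of 301, against 0.118 to 3.999 in the other libraries, so that call rests on 1 library. Leaving out each library in turn also left 0 members called in every test. With a replicate block 0 members were called in each test, and *Ttr* was 2.47 in KO_RL against WT_RL, so the pairing by number changed no call. Only 5 of 18 libraries correlated best with their own number.

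Directions turned when single libraries were left out. Over the libraries left out, the log2 fold change of *Ttr* ranged from −0.035 (without WT_RL 1) to 4.56 in KO_RL against WT_RL, from −0.32 (without WT_RL 1) to 4.27 in the difference between genotypes, and from −0.83 to 0.14 (without KO_RL 2) in KO_RL against KO_OL, where that of *Sostdc1* ranged from −0.66 to 0.015 (without KO_RL 2). Among the descriptions, the median difference ranged from −3.13 to −2.10 in KO_Basal against WT_Basal, with 10 members separated each time, from −0.31 to 0.69 in WT_OL against WT_Basal (0 to 1 separated, and −0.31 without WT_Basal 2), and from −2.32 to 0.34 in WT_RL against WT_Basal (0 to 8 separated, with 0.34 without WT_RL 1 and −2.32 without WT_RL 3). Separation is easier with 1 mouse fewer in a group. The share of all genes was not computed at these settings, so these counts have no background to be read against. The median SD of the log2 ratio to *Ttr* was 1.25 over all libraries, 1.01 with log2(CPM + 0.1) and 0.239 in libraries with at least 500 CPM of *Ttr*, the last added after seeing the data. The 294 genes with an r of at least 0.9 became 84 when group means were kept, and 125 to 443 when 1 library was left out. In all, 227 of 238 alternative values of these counts and medians kept their direction and stayed within 1.5 times for a count or within 1.28, the members' within-group SD, for a median difference (for the ratio, the SD over members). Most of the 238 were counts of members called, nearly all 0 against 0, which have no direction and could hardly move. What depth limits are the lowest values: under about 10 reads (*Kcne2*, *Tmem72*) a level in WT_RL 1 has a wide counting error. The same holds for *Kcne2* in KO_Basal 1 (8 reads) and for *Tmem72* in KO_Basal 1 (7 reads) and KO_Basal 3 (9 reads).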
